A study of Mus musculus with 40 samples.

Results

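The genes described are 10 components of insulin and insulin-like growth factor (IGF) signalling: the receptors Insr and Igf1r, the docking proteins Irs1 and Irs2, the phosphoinositide 3-kinase (PI3K) regulatory subunit gene Pik3r1, the kinase genes Akt1 and Akt2, the transcription factor gene Foxo1, and the IGF-binding protein genes Igfbp1 and Igfbp2. They were chosen by gene symbol, by a rule that uses no measured value but was made with earlier results of these data known, and are 10 of the 20078 genes found in at least 1 of 4 expression tables. All 10 were measured in the tables of female liver, male liver and male gonadal white adipose tissue (gWAT), and 9 in female gWAT, where Igfbp1 was not analysed. The study profiled liver and gWAT of male and female C57BL/6J mice, an inbred laboratory strain, whose fathers had been exposed either to nicotine or to a control treatment. The design gives 8 groups of 5 samples, by tissue, sex and paternal exposure, and 39 library columns were analysed, because the male gWAT table has 4 control columns, whose numbers cannot be tied to labelled samples. The column headers call the control DMSO, a common solvent; beyond the fathers' exposure the labels name no allele or agent, and no dose, route or duration of nicotine, no age of the offspring and no litter or father of a sample is given in the sources used here. Because nothing ties the samples to separate litters or fathers, a p-value here reflects only how far these samples spread.

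Insulin and IGF1 bind receptor tyrosine kinases, which phosphorylate the docking proteins IRS1 and IRS2. These recruit PI3K, whose regulatory subunit p85α, with the shorter p55α and p50α, is encoded by Pik3r1, and the lipid signal made by PI3K activates the AKT kinases. AKT keeps FOXO1 out of the nucleus, promotes glucose uptake in adipocytes and lipid synthesis in both tissues, and lowers glucose output by hepatocytes. IGF-binding proteins hold IGFs in the circulation and tissue fluid; Igfbp1 is a liver transcript that insulin represses, in part through FOXO1. The measurements are of mRNA, and say nothing of phosphorylation or of insulin itself.

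Libraries were made from the 3′ ends of polyadenylated RNA, so that a read marks a transcript end, and held between 1543208 and 2239073 reads assigned to genes. Values are normalized counts, that is reads divided by 1 size factor per library within a table. Hepatocyte transcripts (summed over 5 markers) were at 50118 or more in every liver library and at most 3024 in gWAT, and adipocyte transcripts were at 16097 or more in every gWAT library and at most 233 in liver. Some libraries also carried transcripts of neighbouring tissues. Epididymis and testis markers summed to 28843 in control 1 and 20810 in nicotine 1 of male gWAT, skeletal muscle markers to 18966 in control 2 of female gWAT and 4862 in nicotine 4 of male liver, and exocrine pancreas markers to 6342 in nicotine 2 of male liver. In male liver, nicotine 1 and nicotine 5 had hepatocyte sums of 50118 and 54019, against 81709 to 94534 in the other 8 libraries, and Kupffer cell sums of 464 and 428, against 221.5 to 348 in the others. Stellate cell and fibroblast sums were 1608, 1357 and 1394 in nicotine 1, 4 and 5 of male liver, against 539 to 679 in the other 7. In female liver the summed endothelial markers ran from 666 to 719 in controls and from 482 to 594 in nicotine libraries, without overlap, although none of the 5 markers passed the test singly. In female gWAT the summed macrophage markers ran from 537.8 to 984 in controls and from 149 to 321 in nicotine libraries, without overlap. In bulk tissue, fewer cells of a type and less RNA per cell cannot be told apart.

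The stretches upstream of 5 members are shown because Akt1 and Pik3r1 are the members with the smallest p-values below, because FOXO1 is the factor that forkhead motifs concern, and because Igfbp1 and Irs2 are textbook targets of FOXO1. Each runs 5′ to 3′ on the gene's strand and ends at the base before the outermost transcript start in RefSeq (GRCm38.p6, the assembly also called mm10). RefSeq sequences were matched for 9 of the 10 members; Insr was not matched. Capitals mark CAAAACA (the core of the insulin response element), GTAAACA (a forkhead motif) or CACGTG (an E-box), searched on both strands.
Pik3r1: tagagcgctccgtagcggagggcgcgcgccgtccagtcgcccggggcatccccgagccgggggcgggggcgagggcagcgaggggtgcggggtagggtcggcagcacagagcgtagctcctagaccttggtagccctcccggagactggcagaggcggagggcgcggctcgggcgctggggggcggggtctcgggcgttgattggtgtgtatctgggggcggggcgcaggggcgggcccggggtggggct
Foxo1: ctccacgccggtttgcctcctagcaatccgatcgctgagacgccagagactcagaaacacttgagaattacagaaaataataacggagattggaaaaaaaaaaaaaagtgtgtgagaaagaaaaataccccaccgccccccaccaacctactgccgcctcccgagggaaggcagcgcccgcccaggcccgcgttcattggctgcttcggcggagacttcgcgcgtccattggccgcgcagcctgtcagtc
Akt1: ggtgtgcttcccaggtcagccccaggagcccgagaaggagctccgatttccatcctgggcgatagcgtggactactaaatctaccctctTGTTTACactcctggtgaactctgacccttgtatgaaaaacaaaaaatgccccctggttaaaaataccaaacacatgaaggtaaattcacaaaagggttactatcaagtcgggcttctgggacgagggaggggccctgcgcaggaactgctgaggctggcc
Igfbp1: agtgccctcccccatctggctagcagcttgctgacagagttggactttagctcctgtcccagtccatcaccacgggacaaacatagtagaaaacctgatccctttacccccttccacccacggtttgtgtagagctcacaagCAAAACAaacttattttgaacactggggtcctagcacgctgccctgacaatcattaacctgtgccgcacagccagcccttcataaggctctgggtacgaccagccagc
Irs2: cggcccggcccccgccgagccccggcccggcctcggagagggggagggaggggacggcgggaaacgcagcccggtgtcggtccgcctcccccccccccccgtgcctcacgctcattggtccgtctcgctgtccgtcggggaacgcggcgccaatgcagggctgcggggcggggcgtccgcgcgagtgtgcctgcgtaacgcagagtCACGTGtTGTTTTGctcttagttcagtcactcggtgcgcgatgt
These are chr13:101768218-101768467, minus strand (Pik3r1), chr3:52268087-52268336, plus strand (Foxo1), chr12:112674885-112675134, minus strand (Akt1), chr11:7197537-7197786, plus strand (Igfbp1) and chr8:11008930-11009179, minus strand (Irs2).

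The Igfbp1 stretch holds CAAAACA starting 108 bases before the start site, a heptamer present in 5.56% of the 27025 RefSeq promoter stretches of the same length (250 bases). Irs2 holds the reverse complement of that heptamer 37 bases before the start, separated by 1 base from a CACGTG that starts at 44 bases, and 6.04% of stretches hold CACGTG. Akt1 holds GTAAACA on the other strand 161 bases before the start, against 3.06% of stretches with that motif. Pik3r1 and Foxo1 hold none of the 3 motifs in these windows, and 4 of the 9 matched members hold none. Of the members not shown, Irs1 has CAAAACA on the other strand at 111 and 32 bases and CACGTG at 115 bases, and Igfbp2 has CACGTG at 142 bases. A match of letters describes the sequence only.

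In the GENCODE M21 annotation of the same assembly the members are protein-coding genes on 7 chromosomes: Insr (chr8:3122061-3279617, minus strand), Igf1r (chr7:67952827-68233668, plus strand), Irs1 (chr1:82233101-82291416, minus strand), Irs2 (chr8:10984681-11008458, minus strand), Pik3r1 (chr13:101680563-101768217, minus strand), Akt1 (chr12:112653821-112674884, minus strand), Akt2 (chr7:27591552-27640826, plus strand), Foxo1 (chr3:52268336-52353221, plus strand), Igfbp1 (chr11:7197782-7202546, plus strand) and Igfbp2 (chr1:72824503-72852474, plus strand). Other annotated genes overlap 6 of them, among them the antisense transcripts Gm16180 in Insr and Gm20402 in Foxo1 and the gene Gm9747 opposite the 3′ end of Irs1. Without a stated use of strand, reads of such partners cannot be told apart. A processed pseudogene, Akt2-ps (chr11:16514533-16515981), is counted on a row of its own. Akt2 values below leave it out, and for female gWAT the change of their sum is given as well.

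Among control animals the members divided by tissue. Reads scaled to a common library total (RPM) are used here, since the 4 tables were normalized separately, and the levels are set side by side without a test. Igfbp2 stood at 313 ± 35.8 RPM (SD, n = 5) in female liver and 375 ± 42.5 in male liver, against 27.1 ± 50.8 in female gWAT, where control 2 alone had 118, and 13.0 ± 7.00 in male gWAT (SD, n = 4). Igfbp1 was at 129 ± 32.7 in female and 79.2 ± 29.9 in male liver and at 2.83 ± 1.79 in male gWAT, so that both binding proteins were mainly liver transcripts. Igf1r, the IGF1 receptor, showed the opposite order, with 7.79 ± 1.76 and 7.44 ± 3.23 in female and male liver and 72.0 ± 30.2 and 93.0 ± 67.7 in female and male gWAT. Its ranges in the tissues did not overlap in either sex.

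Akt2, the AKT isoform best known for insulin-stimulated glucose handling, was at 37.8 ± 3.96 RPM in the liver of females, 15.0 ± 4.08 in that of males, and 183 ± 48.3 and 221 ± 97.5 in gWAT of females and males. Akt2-ps, not included in these values, was at 8.31 to 13.6 RPM in female and 0 to 3.10 in male liver controls. The Akt2 ranges of female and male liver did not overlap (33.7 to 44.2 against 8.67 to 19.9), whereas the sexes overlapped in gWAT. Irs1 had the same kind of order, from 19.9 ± 4.195 in male liver through 37.5 ± 5.53 in female liver and 77.8 ± 26.7 in male gWAT to 118 ± 5.03 in female gWAT, and the libraries of the 2 gWAT groups did not overlap (39.3 to 100.3 and 112 to 123). Male gWAT control 1, one of the libraries rich in epididymal transcripts, was the lowest of these with 39.3. Irs2 was at 57.1 ± 7.80 in liver of males and 87.2 ± 14.3 in that of females, and at 148 ± 22.8 and 204 ± 41.3 in gWAT of females and males, and only the 2 gWAT groups overlapped among neighbours in this order. Insr differed least between tissues, with 73.4 ± 10.4 and 68.3 ± 9.25 in female and male liver, 63.3 ± 18.7 in male gWAT and 46.2 ± 15.2 in female gWAT, and each group overlapped the next.

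Pik3r1 ran from 76.0 ± 7.29 RPM in liver of females and 97.0 ± 17.1 in that of males to 203 ± 37.7 and 299.6 ± 93.1 in gWAT of females and males. Foxo1 followed the same order over a smaller range, with 58.1 ± 7.88, 78.6 ± 14.5, 93.8 ± 16.6 and 109 ± 34.1, and neighbouring groups overlapped. Akt1 was at 17.1 ± 6.42 and 18.8 ± 3.38 in male and female liver and at 38.9 ± 7.56 and 43.7 ± 3.44 in male and female gWAT, and the liver and gWAT ranges did not overlap.

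**Figure D1:**
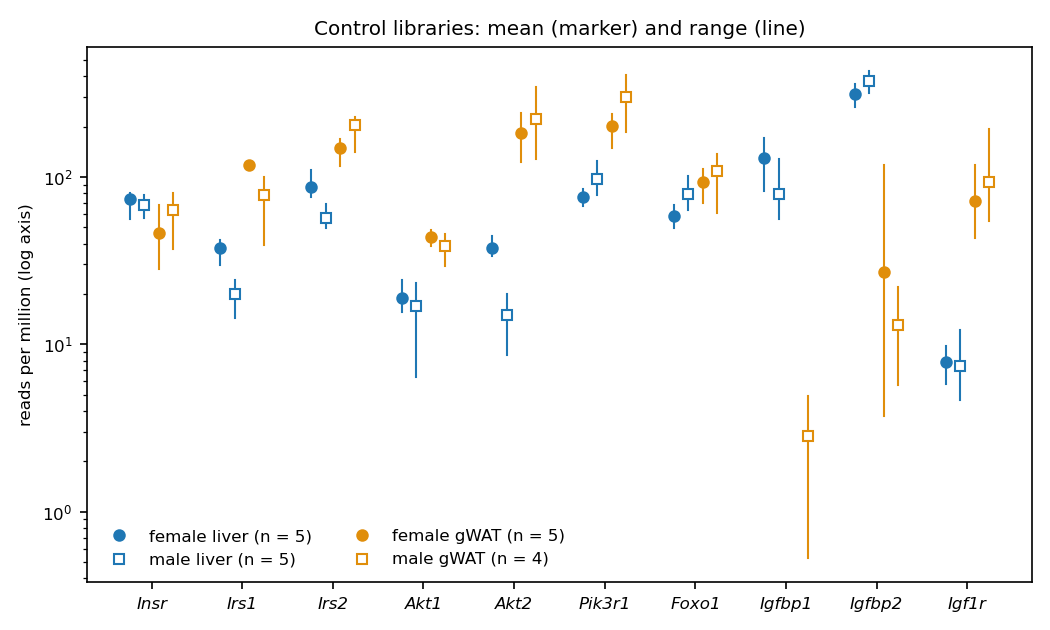
RPM of each member in control libraries, on a log axis, with the mean as a marker and the lowest to highest library as a line, for female liver, male liver and female gWAT (n = 5 each) and male gWAT (n = 4). Igfbp1 and Igfbp2 are higher in liver than in gWAT, Igf1r, Akt1 and Irs1 have higher means in gWAT, and the Insr ranges of neighbouring groups overlap.

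Paternal nicotine was then compared with control within each table by limma on log2(normalized count + 1), keeping genes that averaged 10 or more, with Benjamini-Hochberg adjustment over every gene tested and a threshold of 0.05. Fold changes on this scale understate those of low genes. Female gWAT was the table in which most members passed: Pik3r1, Insr and Foxo1 rose and Akt1 and Akt2 fell, 5 of 9 members (55.6%), in a table where 25.2% of 10532 genes passed, 12.4% higher and 12.8% lower. In female liver 1 of 10 members passed, Pik3r1, which rose, where 3.28% of 9173 genes passed (1.61% higher after nicotine). No member passed in male liver (0.055% of 9093 genes passed; 1 member, Irs1, had an unadjusted p below 0.05) or in male gWAT (0 of 11210 genes, 0%; 2 members, Akt1 and Igfbp2, had one). edgeR and DESeq2 on recovered reads also called 0 members in each male table. In male liver edgeR called 3 and DESeq2 186 of the 9093 genes, and the authors' deposited table calls 1.46% of its 10531 genes. In male gWAT each of these called 0 genes. The members' median log2 change was 0.454 in female gWAT, 0.036 in female liver, 0.135 in male liver and -0.021 in male gWAT, beside -0.026, -0.004, 0.0 and 0.007 for all genes tested. In female gWAT that median is the value of Igfbp2 itself, for which no direction is given below, so it shows no common shift.

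**Figure D2:**
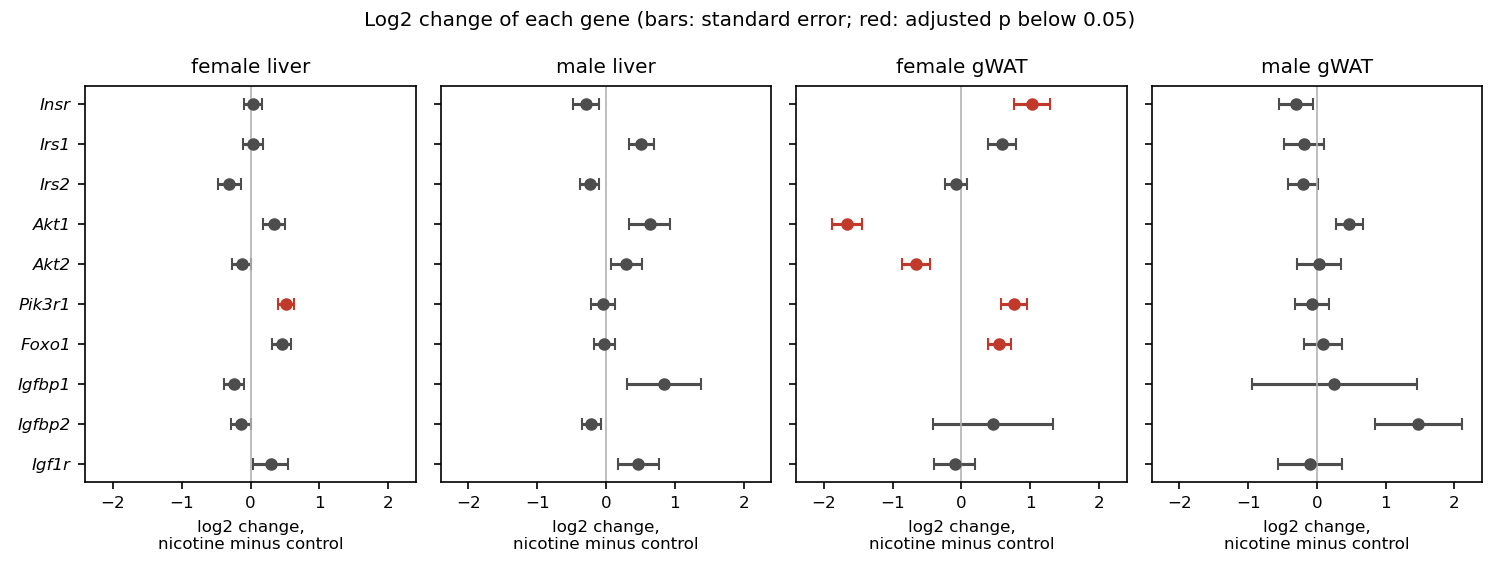
Log2 change (nicotine minus control, x axis) of each member in the 4 tables, with standard errors from limma as bars. Red marks an adjusted p below 0.05: Pik3r1 in female liver, and Insr, Akt1, Akt2, Pik3r1 and Foxo1 in female gWAT, while none is red in male liver or male gWAT.

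In gWAT of daughters the components of the pathway moved in different directions on the authors' scaling. Akt1 was about 3-fold lower and Akt2 lower by a smaller factor, while the insulin receptor, the PI3K regulatory subunit and Foxo1 were higher by factors of 1.47 to 2.00. Igf1r and Irs2 did not pass, and Irs1 lay just outside the threshold.

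Akt1, an AKT kinase gene expressed in most tissues, had normalized counts of 89.2, 73.3, 70.8, 63.2 and 66.3 in controls 1 to 5 and of 17.2, 25.4, 27.3, 14.4 and 30.0 in nicotine libraries 1 to 5. Every nicotine library was below every control. The mean fell from 72.5 ± 10.1 (SD, n = 5) to 22.9 ± 6.71 (SD, n = 5), a log2 change of -1.66 (SE 0.22, limma adjusted p = 2.84e-04), 3.18-fold lower on the linear scale. Akt2 was at 444, 203, 334, 235 and 308 in controls and 173, 184, 224, 186 and 166 in nicotine libraries. The nicotine libraries lay close together and 4 of 5 were below every control, with nicotine 3 overlapping control 2. The Akt2 mean fell from 305 ± 94.0 (SD, n = 5) to 187 ± 22.3 (SD, n = 5), a log2 change of -0.66 (SE 0.20, limma adjusted p = 0.0269). The pseudogene Akt2-ps was at 71.6, 50.4, 71.6, 43.1 and 59.6 in controls and 22.9, 14.5, 34.6, 40.9 and 28.1 in nicotine libraries and fell as well (log2 change -1.10, adjusted p = 0.00910); the sum of both rows gave -0.72 with an adjusted p of 0.0156. Akt2 lost its call without control 1, 3 or 5, or without nicotine 2, 4 or 5, left out singly (adjusted p up to 0.0637), at log2 changes between -0.66 and -0.51.

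Upstream of AKT, the insulin receptor gene Insr was at 125, 88.0, 62.9, 45.8 and 65.4 in controls and 118, 179, 157, 215 and 105 in nicotine libraries. Control 1, the highest control, overlapped the lower nicotine libraries, and the other 4 controls lay below all of them. Its mean rose from 77.5 ± 30.7 (SD, n = 5) to 155 ± 44.9 (SD, n = 5), a log2 change of 1.02 (SE 0.26, limma adjusted p = 0.0128). Igf1r was at 79.4, 123, 76.9, 127 and 176 in controls and 206, 83.3, 65.5, 85.3 and 124 in nicotine libraries, which overlapped throughout (log2 change -0.10, SE 0.30, adjusted p = 0.838).

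Irs1, the docking protein gene, was tightly grouped in controls, at 209, 203, 200, 183 and 179.7, and spread in nicotine libraries, at 202, 390, 205, 413 and 327. Nicotine 1 and 3 lay at the control level, and nicotine 2, 4 and 5 well above it. The Irs1 means of 195 ± 12.8 (SD, n = 5) and 307 ± 100.2 (SD, n = 5) gave a log2 change of 0.59 (SE 0.21) with a limma adjusted p of 0.0524, which missed the threshold, while edgeR gave 0.0402, DESeq2 gave 0.0194 and the authors' deposited table gives 0.0226. With Irs1, the authors' deposited table calls 6 of 9 members, where it calls 18.9% of its 15321 genes. Irs2 was at 314, 267, 217, 191 and 241 in controls and 204, 244, 216, 254 and 236 in nicotine libraries, with a log2 change of -0.07 (adjusted p = 0.767).

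Pik3r1 was at 397, 298, 389.6, 244 and 349.5 in controls and 498, 530.1, 610.1, 751 and 459 in nicotine libraries. All 5 nicotine libraries were above all 5 controls on this scale. The mean rose from 336 ± 64.7 (SD, n = 5) to 569.7 ± 116 (SD, n = 5), a log2 change of 0.76 (SE 0.18, limma adjusted p = 0.00847). Foxo1, whose product AKT restrains, was at 162, 156, 174, 114 and 167 in controls and 189, 217, 282, 238 and 205 in nicotine libraries, again without overlap. Its mean on this scale rose from 154 ± 23.8 (SD, n = 5) to 226 ± 35.8 (SD, n = 5), a log2 change of 0.55 (SE 0.17, limma adjusted p = 0.0272). Foxo1 lost its call without control 4 or without nicotine 2, 3 or 4, left out singly (adjusted p 0.051 to 0.0641, log2 change 0.44 to 0.56). Akt1, Pik3r1 and Foxo1 were 3 of 9 members whose groups did not overlap, beside 16.7% of all genes tested.

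Pik3r1 and Foxo1 depended on how the libraries were scaled. Normalized counts summed to 1493668 to 1847643 in female gWAT controls and to 1785329 to 2326901 in nicotine libraries, so that the size factors raised nicotine libraries relative to their totals. Scaled to equal totals, Foxo1 was at 93.8 ± 16.6 RPM (SD, n = 5) in controls and 108 ± 19.2 RPM (SD, n = 5) in nicotine libraries, with ranges of 69.5 to 112 and 92.3 to 138.5 that overlapped, and a log2 change of 0.21 (limma adjusted p = 0.397). Pik3r1 was at 203 ± 37.7 and 270.1 ± 39.8 RPM, where the lowest nicotine library (228) lay under the highest control (237), and its log2 change was 0.42 (limma adjusted p = 0.0813). Insr (0.68, adjusted p = 0.0385), Akt1 (-1.996, 1.04e-04) and Akt2 (-1.001, 0.0024) passed on this scale as well, and Akt1 did not overlap (38.7 to 48.3 against 6.20 to 16.8 RPM), so that 3 of 9 members passed, beside 29.8% of 10645 genes. Equal totals moved the median log2 change of all genes to -0.365 and the calls from 12.4% of genes higher and 12.8% lower to 4.54% higher and 25.2% lower. Relative to that median the members stood at 1.05 (Insr), 0.79 (Pik3r1), 0.57 (Foxo1), -1.63 (Akt1) and -0.64 (Akt2), close to the changes on the authors' scaling. Rescaling shifts all genes of a library alike, so this closeness follows from the arithmetic and adds no support. Which scaling follows the amount of RNA per cell was not tested.

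Igfbp2 was low in most female gWAT libraries, at 8.82, 195, 6.11, 6.41 and 7.45 in controls and 37.8, 6.04, 24.6, 7.21 and 71.3 in nicotine libraries. The high control 2 is the library with skeletal muscle transcripts, and its part in the value was not tested. The log2 change was 0.45 (SE 0.87, adjusted p = 0.736) although the mean was higher in controls (44.8 ± 84.1 against 29.4 ± 26.9), and edgeR and DESeq2 gave negative changes of -0.58 and -0.61, so no direction is given.

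**Figure D3:**
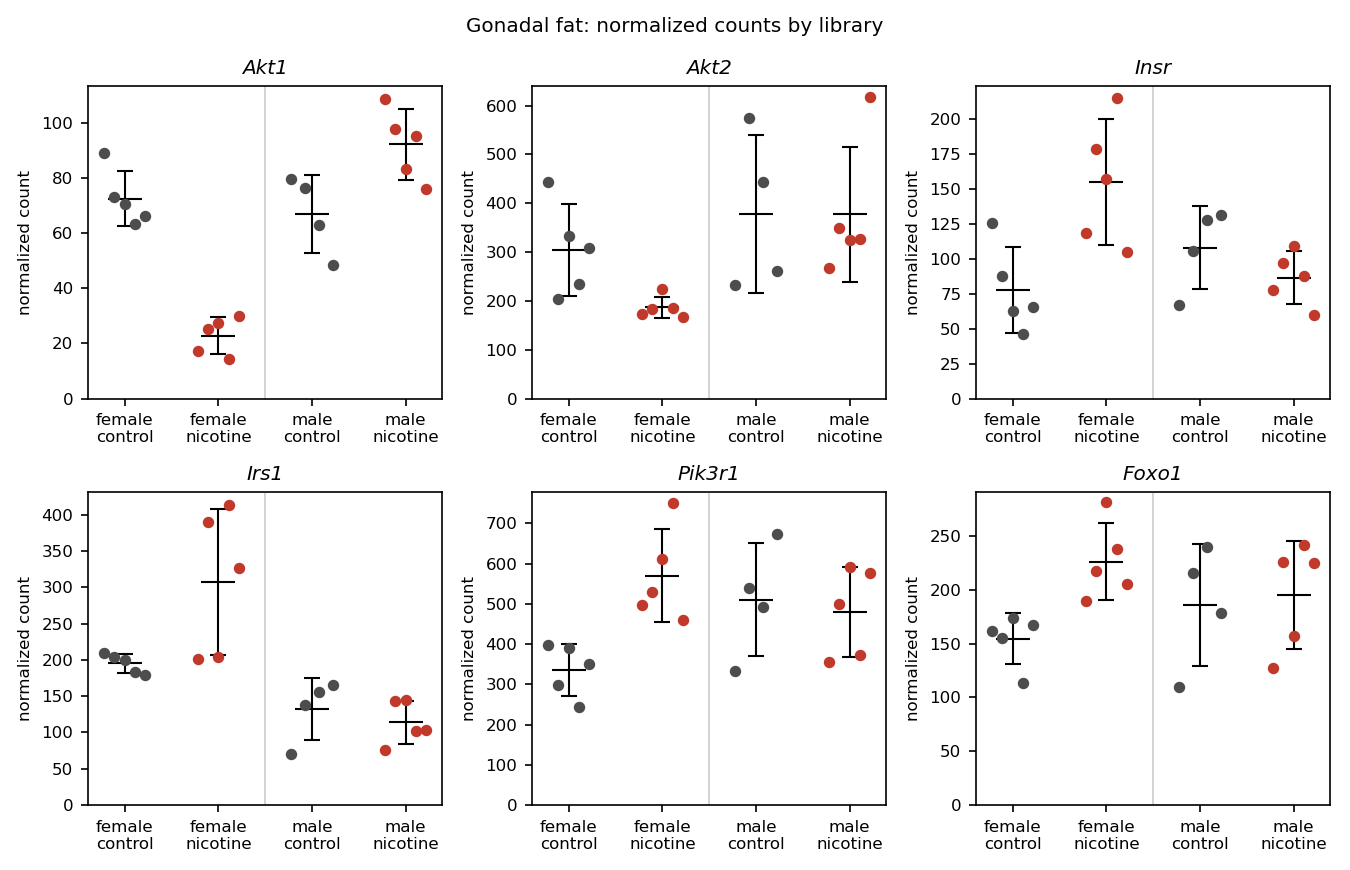
Normalized counts (y axis) of 6 members in each gWAT library (points), by sex and paternal exposure, with means and SDs as black bars; tables of the sexes were normalized separately. In females Akt1 is lower and Pik3r1 and Foxo1 are higher in every nicotine library than in every control (on RPM the groups of Pik3r1 and of Foxo1 overlap), and in males the groups of all 6 genes overlap.

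Several features of the female gWAT libraries moved with the fathers' exposure. All 4 tested macrophage markers (of 5 listed) fell, as did 3 of 5 mesothelial and 2 of 5 stellate cell and fibroblast markers, and 1 of 5 adipocyte markers rose. Adipocyte sums overlapped, at 20561 to 46337 in controls and 19597 to 30802 in nicotine libraries, and none of the tested endothelial markers passed. The part of these shifts in cell markers in the members' values was not tested. Across all genes the log2 change correlated with transcript length (Spearman's rho 0.23) and with GC content (rho -0.21). The same values were 0.01 and -0.05 in female liver, -0.13 and 0.05 in male liver and -0.19 and 0.18 in male gWAT. Genes are not independent replicates, and these are descriptions. Among the members that passed, Akt1 (2690 bases, 59.7% GC) and Akt2 (4544 bases, 55.2%) have the shortest and GC-richest transcripts. Insr (9355 bases, 46.8%), Foxo1 (8665 bases, 48.5%) and Pik3r1 (7113 bases, 44.9%) are longer and GC-poorer. The members that did not pass did not all follow this order. Igfbp2, for which no direction is given, is shorter and GC-richer (1307 bases, 62.1%). Irs2 (6323 bases, 56.6%), Igf1r (11409 bases, 49.4%) and Irs1 (9144 bases, 50.3%) had log2 changes of -0.07, -0.10 and 0.59.

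With the trend on length and GC content removed from each library, the log2 changes became -1.36 for Akt1 (limma adjusted p = 5.89e-04), 0.83 for Insr (0.0342) and 0.59 for Pik3r1 (0.034), which still passed, and -0.54 for Akt2 (0.0635) and 0.41 for Foxo1 (0.1), which did not. Without control 2 and control 4, the library with the highest sum of ovary and oviduct markers (371), Akt1 and Akt2 passed, at -1.72 and -0.94, and Insr (0.89, adjusted p = 0.0511), Pik3r1 (0.57, 0.0603) and Foxo1 (0.42, 0.128) did not, with 1539 genes called in place of 2656. Akt1 was thus the member that passed in female gWAT under each alternative listed here.

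**Figure D4:**
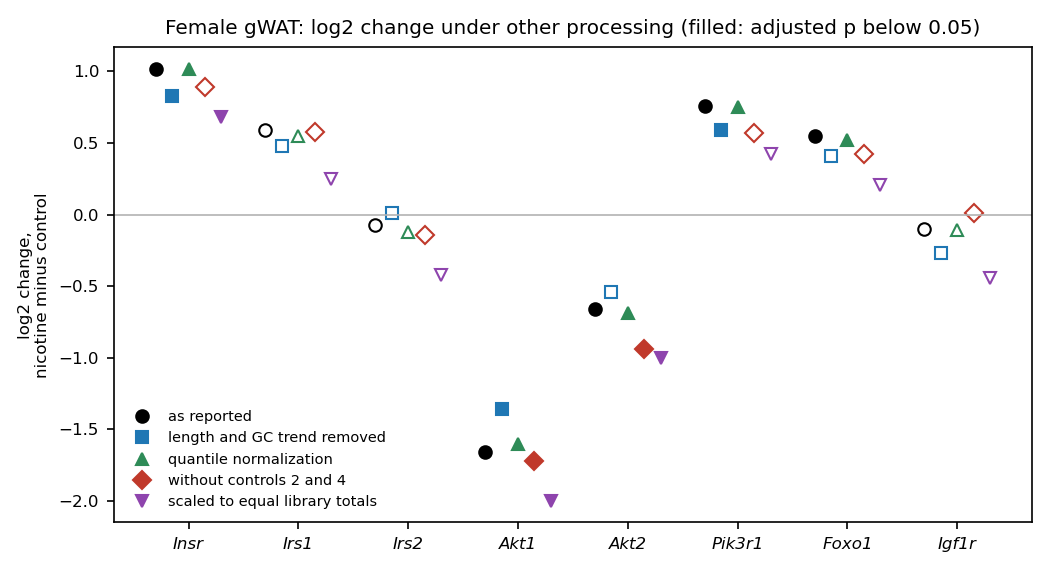
Log2 change (y axis) of 8 members in female gWAT as reported, with the length and GC trend removed, after quantile normalization, without controls 2 and 4, and scaled to equal library totals; filled markers have an adjusted p below 0.05. Akt1 is filled in all 5, from -1.996 to -1.36, and Foxo1 is filled in 2.

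Beyond the members, 79 other genes of the pathway were listed by role, and 70 were tested in female gWAT. Of these 12 rose and 10 fell (31.4%, beside 25.2% of all genes), with a median log2 change of -0.08. The 10 include Socs3, which reached the minimum mean through its controls alone. With equal library totals 7 of 71 rose and 22 fell, where 4.54% of all genes rose and 25.2% fell. The 10 that fell still did, and Pik3cb, Rictor, Phlpp1, Phlpp2 and Gsk3b, described below as higher, no longer passed. The gene with the smallest p was Igfbp4, a secreted IGF carrier, at 1805, 1558, 2123, 1962 and 1535 in controls and 584, 492.7, 775, 449.5 and 531 in nicotine libraries (log2 change -1.68, SE 0.18, limma adjusted p = 5.91e-05). Igfbp7 (-1.40, adjusted p = 5.11e-04) and Igfbp6 (-2.13, adjusted p = 0.00214) fell too, so that 3 of 6 other IGF carriers were lower and none higher. Igf1, the main IGF ligand of adult animals, stood at 731 ± 73.7 in controls and 701 ± 143 in nicotine libraries (log2 change -0.08, adjusted p = 0.767), and Igf2 was under the minimum mean.

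Of all genes tested in female gWAT 25.2% passed and 16.7% had groups without overlap. Among receptors and docking proteins 2 of 9 rose and 1 fell (33.3%). The shares that passed in the MAPK branch (20.0%) and the mTOR branch (21.4%) lay under that of all genes. Grb2, the adaptor that links receptors to RAS, was at 339, 289.5, 292, 267 and 279.9 in controls and 112, 151, 150, 137 and 163 in nicotine libraries, a fall of all 5 below all controls (log2 change -1.04, SE 0.15, limma adjusted p = 4.11e-04). Sh2b2, an adaptor gene, was among those that rose. In the MAPK branch 1 of 10 genes rose, the RAS exchange factor gene Sos2 (log2 change 1.17, adjusted p = 7.71e-04), and 1 fell, the kinase gene Map2k1. In the mTOR branch 3 of 14 rose and none fell: the S6 kinase gene Rps6kb1 (0.82, adjusted p = 0.00318), the mTOR-binding protein gene Deptor and the mTORC2 subunit gene Rictor.

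Of 7 other PI3K, PDK1 and AKT genes 3 rose and 1 fell (57.1%, beside 25.2% of all genes). These genes and the inhibitors were picked for description after their values were seen. Pik3ca, the p110α catalytic subunit that p85α binds, was at 79.4, 102, 110.1, 108 and 123 in controls and 230.4, 204, 147, 249 and 152 in nicotine libraries, with no overlap (log2 change 0.89, SE 0.19, limma adjusted p = 0.00451). Pdpk1, the kinase that activates AKT, rose from 62.4 ± 12.8 to 124 ± 28.6 (0.97, adjusted p = 0.00454), also with no overlap, as for 16.7% of all genes in either direction. Pik3cb (p110β) rose by 0.59 (adjusted p = 0.0368), whereas Pik3cd (p110δ), the catalytic subunit of leukocytes, fell (-1.07, adjusted p = 0.0189). The macrophage markers were lower in the nicotine group as well, and their part in the Pik3cd value was not tested. Pik3cb lost its call without control 2, 3, 4 or 5 or nicotine 2, 3 or 4, left out singly, at log2 changes of 0.51 to 0.60.

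Of 14 phosphatases and inhibitors of the pathway 2 rose (Phlpp1 and Phlpp2, phosphatases of AKT), and Grb10 and the receptor phosphatase gene Ptprf fell. Of all genes tested 12.4% rose and 12.8% fell. Socs3, a cytokine-induced inhibitor of insulin receptor signalling, was at 13.7, 21.1, 24.5, 16.5 and 14.1 in controls and 2.29, 0, 0.909, 1.202 and 9.38 in nicotine libraries. It reached the minimum mean of 10 through the controls alone, so that no fold or test is given for it, and without any 1 control it was not tested. The counts of pathway genes that fell, also with equal library totals, include Socs3 and are to be read with that limit. Grb10, an adaptor that inhibits the insulin receptor, fell from 232 ± 31.8 to 147 ± 22.5 (-0.66, adjusted p = 0.00996). Of 9 AKT substrates and glucose transport genes Gsk3b rose and Foxo4 fell, and the insulin-regulated glucose transporter Slc2a4 did not pass (279.5 ± 131 against 454 ± 225, 0.68, adjusted p = 0.220).

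Transcripts that insulin regulates in liver were also listed. In female gWAT 12.4% of all genes tested were higher and 12.8% lower, and the lists here are small. Of 9 tested genes that insulin raises, 3 were higher (Pnpla3, Thrsp and Elovl6, all of lipid synthesis or storage). The immediate early gene Egr1 was lower, and the median log2 change was 1.35. Srebf1 did not pass (0.63, limma adjusted p = 0.164). Of 7 tested genes that insulin lowers, 2 were higher and 1 lower, with a median of -0.13. Ppargc1a, a coactivator of mitochondrial genes, rose from 18.5 ± 9.06 to 58.7 ± 22.3 (1.64, adjusted p = 0.00301), Klf15 was the other higher gene, Cpt1a the lower one, and Pck1 did not pass (-0.52, adjusted p = 0.205). With equal library totals Thrsp, Elovl6 and Klf15 no longer passed, and Pck1 fell (-0.87, limma adjusted p = 0.0258). On that scaling 4.54% of all genes were higher and 25.2% lower.

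In gWAT of sons the groups of all 10 members overlapped, where 0.731% of genes tested did not. Akt1 was at 79.7, 76.5, 63.0 and 48.6 in the 4 controls and 109, 97.9, 83.2, 95.2 and 76.0 in nicotine libraries, 4 of 5 of which were above every control. The mean was 67.0 ± 14.2 (SD, n = 4) in controls and 92.2 ± 12.8 (SD, n = 5) in nicotine libraries, a log2 change of 0.47 (SE 0.20, limma adjusted p = 1.000). Igfbp2 was at 39.9, 23.7, 10.0 and 16.5 in controls and 88.2, 19.8, 118, 134 and 21.3 in nicotine libraries, where nicotine 1, 3 and 4 were high and 2 and 5 were at the control level (log2 change 1.47, SE 0.63, limma adjusted p = 1.000). Of all genes in male gWAT, 1.62% had an unadjusted p below 0.05, as did these 2 members.

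Igf1r in male gWAT was at 349.6, 107, 96.0 and 97.3 in controls and 300.2, 87.5, 133, 117 and 82.7 in nicotine libraries. Control 1 and nicotine 1, about 3 times as high as most others, are the libraries with the most epididymal transcripts, 1 in each exposure group; without them the log2 change moved from -0.10 to 0.04. Igfbp1 was under 10 in all libraries but nicotine 1, at 74.2, the library whose hepatocyte sum of 3024 is the highest in gWAT. Hepatocyte sums of the other male gWAT libraries ranged from 224 to 744. Igfbp1 reached the minimum mean of 10 through nicotine 1 alone and was not tested without that library. Akt2 was at 232, 575, 443 and 261 in controls and 267, 349, 325, 326 and 617 in nicotine libraries and varied more than 2-fold within each group. The remaining members had log2 changes of -0.30 (Insr), -0.19 (Irs1), -0.20 (Irs2), -0.08 (Pik3r1) and 0.09 (Foxo1), each with a limma adjusted p of 1.000. None of 71 other pathway genes tested passed. In simulated counts with known changes, 4.2% of 2-fold changes were recovered in male gWAT, so a missing call does not exclude one. The spread of these simulated counts was taken from the control libraries alone, control 1 among them, so the percentage depends on that library.

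The difference between daughters and sons was tested directly, as the nicotine effect in females minus that in males over the 4 gWAT groups, where 8.87% of 10042 genes passed. It passed for 2 members. For Akt1 the difference was -2.14 on the log2 scale (SE 0.30, limma adjusted p = 5.05e-04), from a fall in females and a male value of 0.47. For Insr it was 1.32 (SE 0.38, adjusted p = 0.0363). The Insr difference lost its call without any 1 of 9 of the 19 libraries (adjusted p up to 0.0811) and with the length and GC trend removed (0.99, adjusted p = 0.0901) or equal library totals (1.00, adjusted p = 0.0871), while that of Akt1 kept it (-1.73 with the trend removed, adjusted p = 0.00304; -2.45 with equal totals, adjusted p = 2.84e-04). Pik3r1 (0.84, adjusted p = 0.0843), Irs1 (0.78, 0.174), Akt2 (-0.69, 0.249) and Foxo1 (0.46, 0.370) did not pass, so a sex difference was not shown for them. Without male control 1, a library rich in epididymal transcripts, Pik3r1 (1.03, 0.0293) and Irs1 (1.05, 0.0403) passed. Male nicotine 1, also rich in these transcripts, was kept in that fit. For both genes it was the only 1 of 19 such fits that passed (limma adjusted p up to 0.191 and 0.323).

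In liver of daughters Pik3r1 was the member that passed, and Foxo1 came next. Pik3r1 was at 166, 143, 132, 146 and 166 in controls and 271, 205, 202, 225 and 179.7 in nicotine libraries. Each nicotine library was above each control, as for 4.73% of all genes in either direction. The mean rose from 150.4 ± 14.9 (SD, n = 5) to 217 ± 34.5 (SD, n = 5), a log2 change of 0.51 (SE 0.11, limma adjusted p = 0.0135), and it passed without any single library (adjusted p 0.008 to 0.0377) and with equal library totals (0.54, adjusted p = 0.00939). Foxo1 was at 124, 136, 119.9, 98.9 and 96.5 in controls and 158, 176, 193, 157 and 111 in nicotine libraries, where 4 of 5 were above every control and nicotine 5 lay among them. Its log2 change of 0.45 (SE 0.14) missed the threshold (adjusted p = 0.0846) and passed without nicotine 5 (0.58, adjusted p = 0.0141). The endothelial sums were lower in the same nicotine libraries, as given above, and their part in these values and in that of G6pc1 below was not tested.

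Neither receptor passed in female liver: Insr was at 146, 158, 156, 157 and 109 in controls and 146, 137, 148, 199 and 121 in nicotine libraries (log2 change 0.04, adjusted p = 0.916), and Igf1r was low, at 12.6, 11.6, 18.2, 19.0 and 15.5 and 12.8, 25.7, 14.0, 17.5 and 28.9 (log2 change 0.30, adjusted p = 0.596). Irs2, the main docking protein gene of the fasted liver, was at 158, 152, 216, 183 and 153 in controls and 94.4, 166, 105, 177 and 169 in nicotine libraries. Nicotine 1 and 3 were low and the other nicotine libraries were at the control level (log2 change -0.31, SE 0.16, limma adjusted p = 0.338). Irs1 had a log2 change of 0.03 (adjusted p = 0.939). Akt1 was at 39.8, 34.7, 48.0, 30.4 and 33.7 in controls and 38.3, 46.6, 46.2, 60.0 and 46.5 in nicotine libraries (log2 change 0.34, adjusted p = 0.273), in the direction opposite to female gWAT, and Akt2 had a log2 change of -0.13 (adjusted p = 0.694). Igfbp1 was at 167, 341, 269.5, 276 and 226 in controls and 188, 184, 203, 236 and 249 in nicotine libraries, within the range of the controls (log2 change -0.24, adjusted p = 0.421), and Igfbp2 gave -0.14 (adjusted p = 0.675).

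Of 59 other pathway genes tested in female liver 1 passed, the lipid phosphatase gene Inppl1 (81.8 ± 5.67 against 60.8 ± 4.13, log2 change -0.42, adjusted p = 0.0474), and it lost the call when any single library was left out (0.0563 to 0.118) or with equal library totals (0.0635). Of 7 tested transcripts that insulin lowers in liver 1 passed: G6pc1, the glucose-6-phosphatase of glucose output, was at 661, 828.5, 566, 559 and 522 in controls and 391, 433, 429.7, 373 and 500 in nicotine libraries (log2 change -0.55, SE 0.11, limma adjusted p = 0.0104). All nicotine libraries were below all controls. Pck1, another enzyme of glucose output, was at 6904 ± 1215 and 8106 ± 1085 (0.24, adjusted p = 0.301). None of 10 transcripts that insulin raises passed; Srebf1, a regulator of lipid synthesis, had a log2 change of 0.56 (adjusted p = 0.0933). Igf1 did not pass, at 2161 ± 444 and 2168 ± 309.8 (0.02, adjusted p = 0.964).

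In liver of sons no member passed or had groups without overlap (3.16% of genes tested had), and the nicotine libraries differed widely among themselves for Igfbp1, Insr and Pik3r1. Igfbp1 was at 112, 129.7, 156, 106 and 248 in controls and 1014, 96.4, 147, 136 and 563 in nicotine libraries. Nicotine 1 and nicotine 5, the libraries with the lowest hepatocyte and highest Kupffer cell sums, and with nicotine 4 the highest stellate cell and fibroblast sums, were several-fold above the others, and nicotine 2, 3 and 4 lay at the control level. The log2 change was 0.84 (SE 0.54, limma adjusted p = 0.486) with these libraries and -0.20 without them (adjusted p = 0.774), and their part in it was not tested further. Insr was lowest in the same libraries, at 78.0, 131, 147, 113 and 75.3 in nicotine and 134, 117, 140, 108 and 149 in control libraries, and its log2 change moved from -0.29 to 0.0073 without them. Pik3r1 likewise was at 131, 207, 201.1, 230.4 and 136 in nicotine libraries and 187, 169, 223, 147 and 192 in controls (-0.04, adjusted p = 0.932; 0.23 without nicotine 1 and 5).

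Irs1 had the smallest p among members in male liver. It was at 27.7, 35.9, 32.8, 45.01 and 47.1 in controls and 55.9, 60.1, 38.8, 62.7 and 52.4 in nicotine libraries, 4 of 5 of which were above every control (log2 change 0.51, SE 0.19, limma adjusted p = 0.25). In the table as a whole 14.5% of genes had an unadjusted p below 0.05. Akt1 was at 38.6, 36.9, 11.5, 31.3 and 44.8 in controls and 46.3, 39.4, 40.8, 60.2 and 49.95 in nicotine libraries (0.63, adjusted p = 0.349), with a low control 3. The other log2 changes were -0.24 for Irs2, 0.30 for Akt2, -0.03 for Foxo1, -0.21 for Igfbp2 and 0.47 for Igf1r, with adjusted p from 0.455 (Irs2) to 0.950 (Foxo1). None of 61 other pathway genes, 7 transcripts that insulin lowers and 9 that it raises passed; the log2 change was -0.51 for G6pc1 (adjusted p = 0.413), 0.17 for Pck1, -0.13 for Srebf1 and -0.39 for Igf1.

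**Figure D5:**
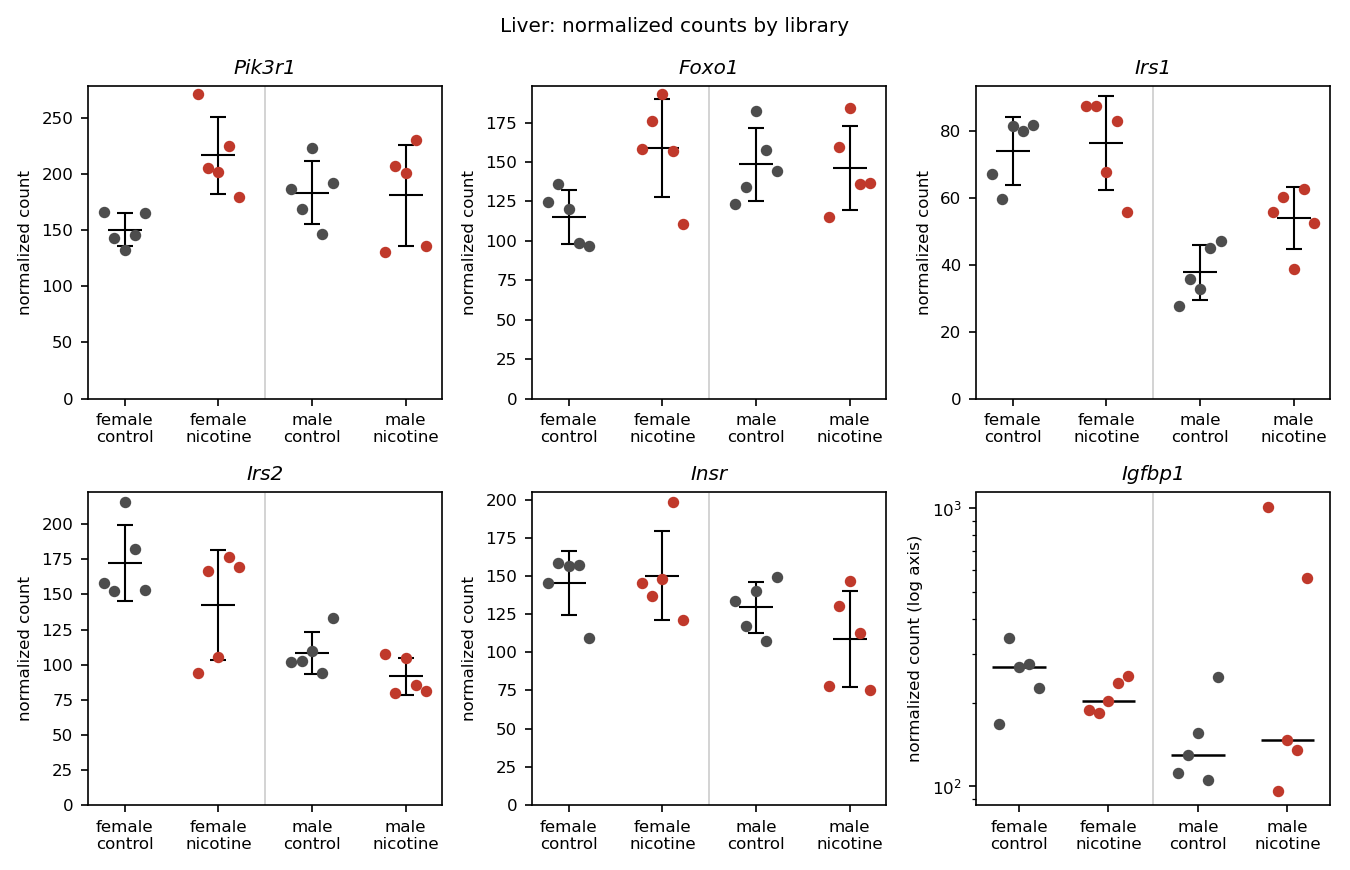
Normalized counts (y axis, logarithmic for Igfbp1) of 6 members in each liver library (points), by sex and paternal exposure, with means and SDs as black bars, or medians for Igfbp1; tables of the sexes were normalized separately. Pik3r1 in females is higher in every nicotine library than in every control, and Igfbp1 in males is high in 2 nicotine libraries.

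In liver the sex difference of the nicotine effect passed for no member, where 1.56% of 8699 genes passed and 16.3% had an unadjusted p below 0.05. The smallest p belonged to Pik3r1, whose difference was 0.56 (SE 0.22, limma adjusted p = 0.205), followed by Foxo1 (0.48, adjusted p = 0.275). The rise of Pik3r1 in female liver was therefore not shown to differ from male liver. Igfbp1 gave -1.08 (SE 0.61, adjusted p = 0.380).

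Members were also compared with each other across libraries, as deviations from the group mean, over 20 liver and 19 gWAT libraries. None of 81 pairs passed after Benjamini-Hochberg adjustment of permutation p-values. The strongest was Foxo1 with Igf1r in gWAT (Pearson's r -0.81, permutation p = 0.0011, adjusted 0.059; Spearman's rho -0.73, p = 0.0023, adjusted 0.078), with r of -0.59 among female and -0.91 among male libraries and -0.61 without the 2 libraries rich in epididymal transcripts. Irs2 with Foxo1 gave r of 0.79 and rho of 0.69 (permutation p = 0.0015 and 0.0057, adjusted 0.059 and 0.078), and r of 0.64 without those libraries. Among all genes with a mean of at least 50, the ones most like a member in gWAT were Capn2 for Foxo1 (r 0.94), Fcor for Akt2 (0.90), Xpnpep3 for Pik3r1 (0.88), Rhot2 for Akt1 (0.83) and Tax1bp1 for Insr (0.80), over 19 libraries. In liver they were Ftl1 for Akt1 (0.92), Lin7c for Pik3r1 (0.87), Slc35a3 for Insr (0.87), Zcchc14 for Foxo1 (0.77) and Nsun2 for Akt2 (0.75), over 20 libraries. Ftl1, with a transcript of 968 bases at 58.1% GC, and Akt1 are both GC-rich, and the libraries share depth and composition, so these likenesses are descriptions. Each of these r values keeps the gWAT libraries rich in epididymal transcripts or the male liver libraries with low hepatocyte sums, and none is given without them.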

How the data were processed

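The authors deposited normalized counts, a signal obtained by dividing gene read counts by a DESeq2 size factor for each library within each of 4 tables. Tools named in the submitters' processing notes are STAR, cutadapt and DESeq2, with the mm10 build and no versions; per the labels' protocols, RNA was column-purified and 3′-tag libraries were prepared with an Illumina kit. How reads were counted, on which annotation and strand, and how genes were filtered is not given in the sources used here, so antisense partners and near-identical copies stay uncertain. The tables also hold the authors' log2 fold changes and p-values, per the file headers, and whether the log2 values were shrunken is not stated. In each library 100% of normalized counts were whole multiples of the value of 1 read, within 0.1 reads, which gave the recovered read counts (1543208 to 2239073 per library). All samples are labelled as 1 batch.

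Each table was fitted with limma 3.58.1 (R 4.3.3, trended empirical Bayes) on log2(normalized count + 1), with a minimum mean of 10 and Benjamini-Hochberg adjustment over all genes tested; sex differences used 1 fit over the 4 groups of a tissue. Alternatives were pseudocounts of 0.5 and 5, no filter, quantile normalization, edgeR 4.0.16 and DESeq2 1.42.0 on recovered reads, a replicate block and leaving out libraries. Chosen after seeing the data were removal of a length and GC trend (splines with 4 degrees of freedom each, fitted in each library), scaling every library of a table to the same total, summing Akt2 with Akt2-ps, and leaving out pairs of libraries with transcripts of other tissues in male liver, male gWAT and female gWAT. The fits were tested on simulated data. The 10 members, the 8 lists holding 79 other pathway genes, the 19 insulin-regulated transcripts and the 11 marker lists of 5 genes were chosen with earlier results of these data known. Besides the members, the text names in each table up to 8 listed genes past the threshold, smallest p first, and always Igf1, Igf2, Pck1, G6pc1, Srebf1 and Slc2a4 where tested; some listed genes are left unreported, though counts over the lists include them; other listed genes were named after their values were seen. For likeness the 3 genes with the highest r were taken, and the first is given. Pair correlations used 100000 permutations within groups.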

Additional observations from a re-analysis of the deposited data

Results flagged for a closer look

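Among 78 groups of member values, 7 libraries lay far from the rest of their group by Dixon's criterion, which chance meets in about 1 in 20 groups of 4 to 10 samples. In liver these were Insr in female control 5 (109 normalized counts) and Igf1r in male nicotine 3 (11.5), both lower than the other libraries of their group. In gWAT they were Igfbp2 in female control 2 (195), the library with skeletal muscle transcripts, and Akt2 in male nicotine 5 (617.4). In male gWAT, Igfbp1 stood apart in nicotine 1 (74.2), the library with the highest hepatocyte sum in that tissue, and Igf1r in control 1 (349.6) and nicotine 1 (300.2), the libraries with the highest epididymis and testis sums. The part of these transcripts of other tissues in the values was not tested.

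The nicotine effect differed between the sexes in gWAT for 2 members by limma's test of the difference itself, where 8.87% of 10042 genes passed. Akt1 gave -2.13 on the log2 scale, female minus male (limma adjusted p = 5.05e-04), and was lower in 5 of 5 female nicotine libraries than in every control. Insr gave 1.32 (limma adjusted p = 0.0363) and was higher in 3 of 5. The Insr difference passed in 10 of 19 fits with 1 library left out (limma adjusted p up to 0.0811). It did not pass with the length and GC trend removed or with equal library totals.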

How the results depend on the processing

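Limits: 4 or 5 libraries a group, male gWAT control columns without a labelled sample, and libraries with transcripts of other tissues. Replicate numbers did not pair the samples (same-number correlations of deviations ran from -0.13 to 0.076 in liver and from -0.277 to 0.173 in female gWAT, and 1 of 15 numbers correlated best with its own); with a replicate block 2 members passed in female liver, Foxo1 in female gWAT had an adjusted p of 0.0617, and 0 genes passed in male liver. No paired analysis was possible in male gWAT because its control columns carry no sample's number. Counts moved by over 1.5 times as follows. Female liver without control 4 and nicotine 5 gave 181 genes and 2 members. Male liver, with 5 genes (2 higher, 3 lower), gave 3 by edgeR, 186 by DESeq2, 54 without nicotine 2 and 4, and 1 higher and 3 lower after quantile normalization. Female gWAT gave 3 members with the length and GC trend removed, 3 with equal library totals, and 1539 genes and 2 members without control 2 and control 4. With libraries left out singly, the genes and members called ran from 185 to 329 and 1 to 2 in female liver (lowest without control 5, 2 members without nicotine 5), 0 to 16 and 0 to 0 in male liver (16 without nicotine 2), 1954 to 2768 and 3 to 6 in female gWAT (3 without nicotine 2 or 4), and 0 to 0 in male gWAT; sex differences ran from 71 to 280 genes in liver and 448 to 1122 in gWAT. The cause of these moves was not tested.

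Log2 changes that turned sign all missed the threshold. Igfbp1 in male gWAT was tested only in fits that kept nicotine 1, so its range below leaves out the fit without that library. In female liver Igf1 became -0.06 after quantile normalization, -0.07 without control 4 and nicotine 5 and -0.01 with the trend removed. In male liver without nicotine 1 and 5 Insr became 0.0073, Pik3r1 0.23, Foxo1 0.11 and Igfbp1 -0.20; with the trend removed Pik3r1 became 0.0065 and Foxo1 0.0031, and with equal library totals 0.07 and 0.08. In female gWAT Igfbp2 became -0.58 by edgeR and -0.61 by DESeq2, Irs2 0.01 with the trend removed, and Igf1r 0.01 without control 2 and control 4. In male gWAT Akt2 became -0.0052 by DESeq2, -0.0045 with the trend removed and -0.06 without control 1 and nicotine 1, where Foxo1 became -0.0025, Igf1r 0.04 and Srebf1 -0.11; with the trend removed Pik3r1 became 0.01 and Igf1r 0.05. Leaving out single libraries turned signs within these ranges: in female liver Insr -0.07 to 0.11, Irs1 -0.04 to 0.14, Igfbp2 -0.21 to 0.02 and Igf1 -0.07 to 0.12; in male liver Pik3r1 -0.14 to 0.06, Foxo1 -0.11 to 0.06 and Srebf1 -0.39 to 0.04; in female gWAT Irs2 -0.16 to 0.02, Igf1r -0.35 to 0.07 and Igf1 -0.17 to 0.0035; in male gWAT Akt2 -0.17 to 0.27, Pik3r1 -0.27 to 0.07, Foxo1 -0.15 to 0.23, Igfbp1 -0.23 to 0.90, Igf1r -0.41 to 0.35, Igf1 -0.20 to 0.25 and Srebf1 -0.02 to 0.40.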
